A study of Homo sapiens with 10 samples.

Results

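The genes described here encode 10 subunits of the NuRD (nucleosome remodelling and deacetylase) complex: CHD3, CHD4, MTA1, MTA2, MTA3, HDAC1, HDAC2, GATAD2A, GATAD2B and MBD3. They were chosen by name, as subunits of the complex that ZMYND8 partners with, and not by any measured value, but with earlier results of these data known. All 10 were found among the 20098 protein-coding genes on the autosomes and X, which served as the background. For each gene, the peaks of ZMYND8 and FLAG-ZMYND8 chromatin immunoprecipitation (ChIP-seq) were counted, placed and sized around its start and along its body.

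The series holds 10 samples from HEK293, an established human embryonic kidney cell line, in its Flp-In T-REx form, which carries a site for inserting a transgene and a tetracycline-controlled repressor. ChIP for ZMYND8, for FLAG-ZMYND8 and for the histone marks H3K14ac and H3K27ac was done in 2 replicates each, with 1 input for the FLAG-ZMYND8 arm and 1 for the other arms, all from formaldehyde-fixed chromatin digested with micrococcal nuclease. The FLAG-ZMYND8 cells carried an inducible full-length 3xFLAG-ZMYND8, were given 10 nM doxycycline, and were precipitated with an antibody to FLAG, so that this list reports a protein that the labels describe as overexpressed. The ZMYND8 ChIP used an antibody to the protein itself, and its labels describe cells with stable 3xFLAG-ZMYND8, either full length or the N228F mutant, without saying which. By their labels the 2 experiments differ in antibody, in the doxycycline treatment and in how the cells and their construct are described. These differences cannot be told apart, and the amount of ZMYND8 in the cells was not measured in these data. The histone mark and input samples were not analysed here, and nothing in a peak list allows a check of the cell line by marker genes.

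The data are 1 peak list per target, 15086 peaks for ZMYND8 and 63690 for FLAG-ZMYND8, given as hg19 coordinates. Neither list names replicates or gives read counts, so the depth is unknown, no spread between replicates can be set against any value, and no test was made. All numbers below are counts, positions and widths within these lists, read beside the same quantity over protein-coding genes where that was computed. The only size a peak has is its width. The narrowest width was 151 bp in the ZMYND8 list and 167 bp in the FLAG-ZMYND8 list, and 53.0% and 54.7% of the peaks had exactly that width.

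NuRD couples an ATP-dependent nucleosome remodeller to histone deacetylases. CHD3 and CHD4 are alternative remodelling motors, HDAC1 and HDAC2 remove acetyl groups from histone tails, and the MTA proteins form the scaffold that the deacetylases bind. MBD3 is a methyl-CpG-binding-domain protein that binds methylated DNA poorly, and GATAD2A and GATAD2B link it to the remodeller. ZMYND8 is a reader of modified histones and DNA that associates with NuRD, and the question put to the lists is whether its peaks lie at the genes of its own partner complex.

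Stretches of hg19 that carry some of the placements described below are printed first, each 5′ to 3′ on the strand of the gene and free of any annotated exon. Capitals mark matches, on either strand, to 4 of the 7 short motifs that were searched: the GC box (GGGCGG), the CCAAT box (CCAAT), the ETS motif (CCGGAAG) and the core of the NRF1 motif (GCATGCG). The motifs CACGTG (E-box), TGACGTC (part of the CRE) and TATAAA had no match in them. Peaks of both lists cover each stretch of the first set: upstream of MTA3 (chr2:42721358-42721540), upstream of GATAD2A (chr19:19495999-19496165), in intron 1 of HDAC1 (chr1:32758299-32758374), near the 5′ end of CHD4 (chr12:6723332-6723403, minus strand), inside CHD3 ahead of its MANE start (chr17:7791207-7791432), in intron 3 of MTA1 (chr14:105915129-105915279) and in intron 5 of MBD3 (chr19:1580331-1580428, minus strand).
MTA3, shared: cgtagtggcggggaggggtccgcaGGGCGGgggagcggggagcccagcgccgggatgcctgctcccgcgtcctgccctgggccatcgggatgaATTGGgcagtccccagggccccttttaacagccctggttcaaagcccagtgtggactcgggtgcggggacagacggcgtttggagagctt
GATAD2A, shared: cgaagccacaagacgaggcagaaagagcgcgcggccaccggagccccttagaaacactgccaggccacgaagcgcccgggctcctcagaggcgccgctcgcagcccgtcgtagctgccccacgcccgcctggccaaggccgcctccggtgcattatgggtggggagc
HDAC1, shared: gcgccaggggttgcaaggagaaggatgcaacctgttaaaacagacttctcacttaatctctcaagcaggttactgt
CHD4, shared: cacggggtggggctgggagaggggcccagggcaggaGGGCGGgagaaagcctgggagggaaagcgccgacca
CHD3, shared: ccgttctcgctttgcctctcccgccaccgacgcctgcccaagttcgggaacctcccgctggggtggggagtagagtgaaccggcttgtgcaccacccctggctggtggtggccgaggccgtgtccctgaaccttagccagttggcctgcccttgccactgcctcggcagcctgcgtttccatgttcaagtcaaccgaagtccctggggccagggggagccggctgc
MTA1, shared: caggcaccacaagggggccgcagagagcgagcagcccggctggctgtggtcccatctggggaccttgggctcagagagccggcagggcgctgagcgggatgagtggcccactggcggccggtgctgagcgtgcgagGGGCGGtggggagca
MBD3, shared: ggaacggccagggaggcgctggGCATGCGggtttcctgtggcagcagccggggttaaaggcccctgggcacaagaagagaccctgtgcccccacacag

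The next pair lies directly before the MANE Select start of HDAC2 (chr6:114292322-114292562, minus strand) and of GATAD2A (chr19:19516234-19516483). The MANE Select transcript is the single reference transcript that the Ensembl and RefSeq annotations agree on for a gene. Its start lies well inside both genes as annotated, and the peaks near it, a FLAG-ZMYND8 peak at HDAC2 and a peak of each list at GATAD2A, are left out of the count at the 5′ end of the gene.
HDAC2, before the MANE start: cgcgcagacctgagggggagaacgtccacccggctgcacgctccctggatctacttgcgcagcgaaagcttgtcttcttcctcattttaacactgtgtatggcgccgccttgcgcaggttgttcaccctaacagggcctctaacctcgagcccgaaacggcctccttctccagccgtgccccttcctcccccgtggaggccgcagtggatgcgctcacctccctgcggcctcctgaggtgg
GATAD2A, before the MANE start: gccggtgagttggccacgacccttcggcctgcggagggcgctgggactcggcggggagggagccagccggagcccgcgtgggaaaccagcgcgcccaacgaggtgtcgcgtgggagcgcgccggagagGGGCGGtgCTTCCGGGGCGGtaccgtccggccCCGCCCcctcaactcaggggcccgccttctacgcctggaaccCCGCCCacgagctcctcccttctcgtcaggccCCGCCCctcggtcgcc

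The 2 stretches differ in composition. The one of HDAC2 held no match to any of the 7 motifs. That of GATAD2A held 5 GC boxes and 1 ETS match, which shares a base with a GC box. Among windows of 250 bases just before the MANE Select or canonical start of protein-coding genes, 58.7% held a GC box and 11.8% an ETS match. Stretches before the MANE Select starts of CHD4, MTA3 and CHD3 are not printed. Their exon-free parts held 1 GC box, 1 CCAAT box and no match, in that order. Further shared stretches, at the TSSs of CHD3 and CHD4 and in the body of GATAD2A, are not printed either and held no match. In the printed shared stretches, MTA3 had 1 GC box and 1 CCAAT box, MTA1 and CHD4 1 GC box each, and MBD3 1 NRF1 core. Of windows as long as that of MTA3, 183 bases, centred on the ZMYND8 peaks of the whole list, 29.4% held a GC box and 13.3% a CCAAT box. A GC box stood in 25.4% of such windows of 151 bases and in 13.7% of those of 72 bases, and the NRF1 core in 0.822% of those of 98 bases. A match to these letters is not evidence of a bound factor.

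At the gene starts, FLAG-ZMYND8 peaks were found at nearly every NuRD subunit gene and ZMYND8 peaks at a part of them. A peak was counted at the transcription start site (TSS) when its midpoint lay within 3 kb of the 5′ end of the gene, as GENCODE release 44 annotates it on this build. The FLAG-ZMYND8 list had such a peak at 9 of the 10 genes, all but HDAC2, where 58.1% of protein-coding genes had one. The ZMYND8 list had one at 5 of 10, namely CHD3, CHD4, MTA3, HDAC1 and GATAD2A, where 34.1% of protein-coding genes had one. The same 5 genes had a peak of both lists, against 29.4% of protein-coding genes, and in all 5 a peak of one list overlapped a peak of the other by at least 1 bp, against 20.3%. With 10 genes and 1 list per target, these shares are a description and carry no error that could be estimated.

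**Figure D1:**
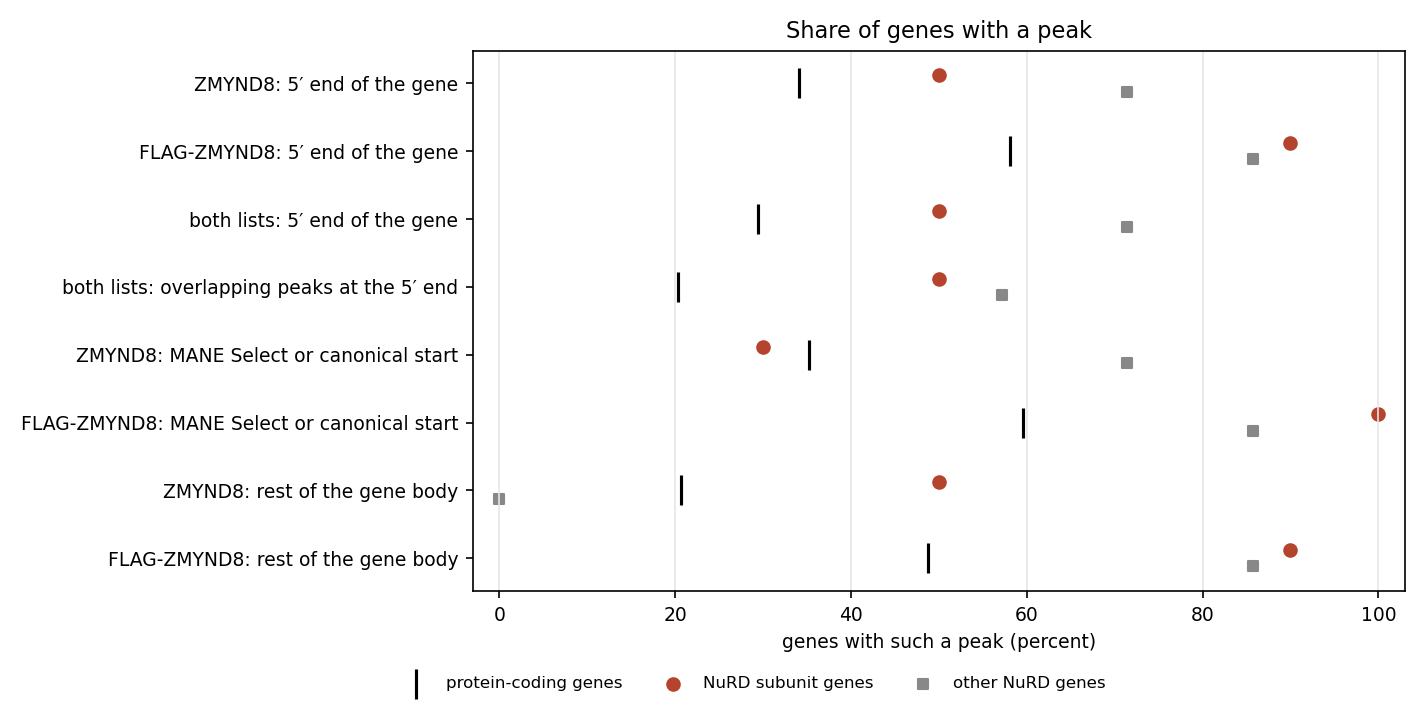
Share of genes, in percent, with a peak of each list at their start or in the rest of their body, by definition of the place. Circles give the 10 NuRD subunit genes, squares the 7 other NuRD genes and vertical bars the protein-coding genes, and the circles lie to the right of the bars in every line but that of ZMYND8 at the MANE Select or canonical start, where 3 of 10 genes face a background of 35.2%.

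In number, 7 ZMYND8 peaks and 27 FLAG-ZMYND8 peaks lay at the TSSs of the 10 genes. This is a mean of 0.7 and 2.7 peaks per gene, where protein-coding genes had means of 0.376 and 1.12. There were thus 3.86 times as many FLAG-ZMYND8 as ZMYND8 peaks. The whole lists, which mix peaks of all places, had 4.22 times as many. At the TSSs of protein-coding genes lay 19184 FLAG-ZMYND8 and 6360 ZMYND8 peaks, a smaller excess than at the 10 genes. All 7 ZMYND8 peaks overlapped a FLAG-ZMYND8 peak, as 56.4% of the ZMYND8 peaks at the TSSs of protein-coding genes did. In the other direction the overlap held for 7 of the 27 FLAG-ZMYND8 peaks, against 21.4%. Downstream of the TSS lay 5 of the 7 and 17 of the 27 midpoints. This share was not computed over protein-coding genes, so no preference for a side is shown.

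**Figure D2:**
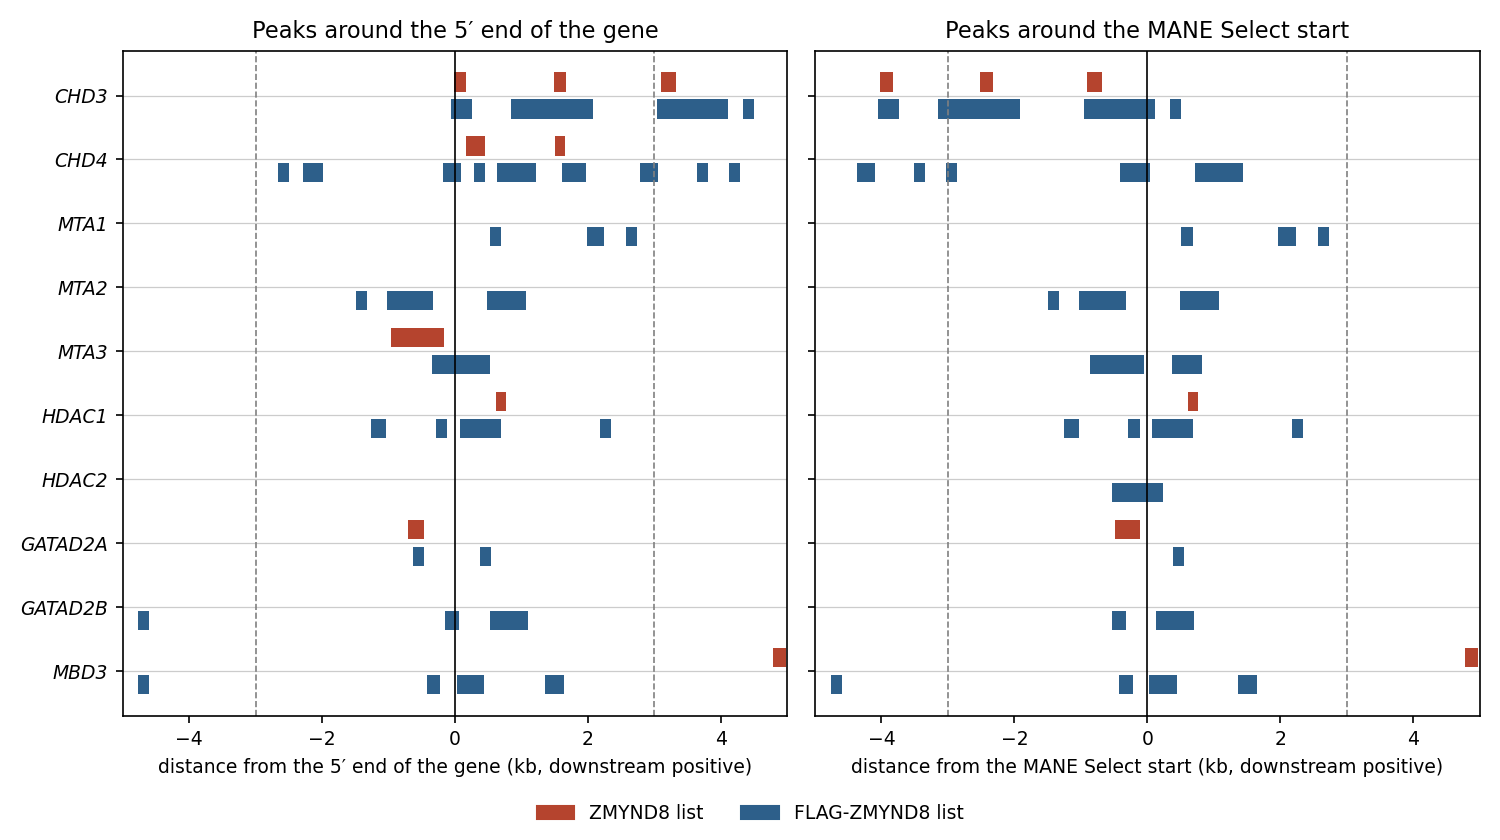
Peaks within 5 kb of the 5′ end (left) and of the MANE Select start (right) of each NuRD subunit gene, drawn to scale with distance in kb, downstream to the right. The upper row of each gene holds the ZMYND8 peaks and the lower row the FLAG-ZMYND8 peaks, and dashed lines mark 3 kb; at HDAC2 the left panel is empty and the right panel holds a FLAG-ZMYND8 peak of 775 bp.

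The remodeller genes had the most bases covered by FLAG-ZMYND8 peaks. CHD4 (chr12:6679248-6723690, minus strand) had 7 FLAG-ZMYND8 peaks at its TSS, more than any other of the 10 genes, at 2586, 2133 and 48 bp upstream and 370, 925, 1789 and 2916 bp downstream. They were 167 to 583 bp wide and covered 2073 bp of the window, more than at 98.7% of protein-coding genes. Its 2 ZMYND8 peaks were 276 bp wide at 308 bp downstream and 151 bp wide at 1575 bp downstream. They overlapped FLAG-ZMYND8 peaks by 159 and 48 bp, so the second was shared only at its edge.

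CHD3 (chr17:7788114-7816078, plus strand) had 2 peaks of each list at its TSS, and each ZMYND8 peak lay wholly inside a FLAG-ZMYND8 peak. A ZMYND8 peak of 188 bp covered the TSS itself, with its midpoint 73 bp downstream, inside a FLAG-ZMYND8 peak of 318 bp. Another of 192 bp, 1579 bp downstream, lay inside a FLAG-ZMYND8 peak of 1233 bp. That peak was the widest at any of the 10 TSSs. FLAG-ZMYND8 peaks lay at the TSSs of 11670 protein-coding genes, of which 384 had a wider one. In that order AADAT and MKLN1 stood directly above and below CHD3, each also with 1233 bp. The start of NAA38, a gene for a subunit of an N-terminal acetyltransferase, lay 339 bp from the midpoint of the FLAG-ZMYND8 peak at the CHD3 TSS, so that these peaks lie at both genes.

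Among the scaffold genes, MTA3 alone had a ZMYND8 peak at its TSS. MTA3 (chr2:42721709-42984087, plus strand) had a ZMYND8 peak of 800 bp, the widest of that list at any of the 10 genes. Among the 6856 protein-coding genes that ZMYND8 peaks marked at the TSS, 1023 had a wider one. Its midpoint lay 569 bp upstream of MTA3 and 18 bp from the start of KCNG3, a potassium channel gene that runs the other way, and it was the one ZMYND8 peak at the 10 TSSs that was nearer to a start of another protein-coding gene. KCNG3 and ZNF518A were next to MTA3 in the order of widest peaks, with 800 bp each, KCNG3 through this same peak. The FLAG-ZMYND8 peak there was 876 bp wide, covered the TSS of MTA3 with its midpoint 86 bp downstream, and shared with the ZMYND8 peak the 183 bases printed above. The ZMYND8 peak was thus centred near the start of KCNG3 and the FLAG-ZMYND8 peak near that of MTA3.

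MTA1 (chr14:105886157-105937066, plus strand) and MTA2 (chr11:62360686-62369337, minus strand) had 3 FLAG-ZMYND8 peaks each at the TSS and no ZMYND8 peak. At MTA2 the FLAG-ZMYND8 peaks were 167, 701 and 585 bp wide, at 1412 and 676 bp upstream and 778 bp downstream. They covered 1453 bp, more than at 95.9% of protein-coding genes. Without peaks nearer to a transcript start of another protein-coding gene, 2 of these 3 remained. At MTA1 all 3 lay in intron 1, 604, 2111 and 2659 bp downstream, with widths of 167, 265 and 167 bp. They covered 599 bp, more than at 75.4% of protein-coding genes. The start of MTA1-DT, a divergent noncoding transcript, lay 685 bp from the nearest of them.

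The paralogous deacetylase genes differed at their 5′ ends. HDAC1 (chr1:32757684-32799236, plus strand) had 4 FLAG-ZMYND8 peaks, 1147 and 200 bp upstream and 384 and 2265 bp downstream, that covered 1174 bp. Its single ZMYND8 peak had the minimum width of 151 bp, lay in intron 1 at 690 bp downstream and overlapped the FLAG-ZMYND8 peak of 613 bp by 76 bp. HDAC2 (chr6:114254192-114332472, minus strand) had no peak of either list within 3 kb of its 5′ end. The lists cannot show whether a weaker signal was present there, since they hold only what passed the caller.

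The linker genes also differed. GATAD2A (chr19:19496635-19619741, plus strand) had a ZMYND8 peak of 246 bp with its midpoint 584 bp upstream, and a FLAG-ZMYND8 peak of 167 bp that lay wholly inside it. Another peak of the FLAG-ZMYND8 list, 167 bp wide, stood 461 bp downstream. GATAD2B (chr1:153761506-153895836, minus strand) had FLAG-ZMYND8 peaks only, one of 216 bp across its TSS and one of 573 bp 809 bp downstream, in intron 1. MBD3 (chr19:1573595-1592864, minus strand) had 3 FLAG-ZMYND8 peaks of 208, 417 and 289 bp at 322 bp upstream and 235 and 1502 bp downstream, and no ZMYND8 peak at the TSS.

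In order of the bases that FLAG-ZMYND8 peaks covered within 3 kb of the 5′ end, the genes ran from CHD4 (2073 bp) through CHD3 (1551 bp), MTA2 (1453 bp), HDAC1 (1174 bp), MBD3 (914 bp), MTA3 (876 bp), GATAD2B (789 bp), MTA1 (599 bp) and GATAD2A (334 bp) to HDAC2 (0 bp). The order by ZMYND8 peaks was another: MTA3 (800 bp), CHD4 (427 bp), CHD3 (380 bp), GATAD2A (246 bp), HDAC1 (151 bp) and the remaining 5 genes at 0 bp. The median over the 10 genes was 895 bp for FLAG-ZMYND8, where that over protein-coding genes was 167 bp, and 75.5 bp for ZMYND8, where it was 0 bp. Among protein-coding genes with a peak at the TSS, the medians were 505 and 258 bp. No spread is known for any of these values, so it cannot be said which neighbours in either order differ.

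**Figure D3:**
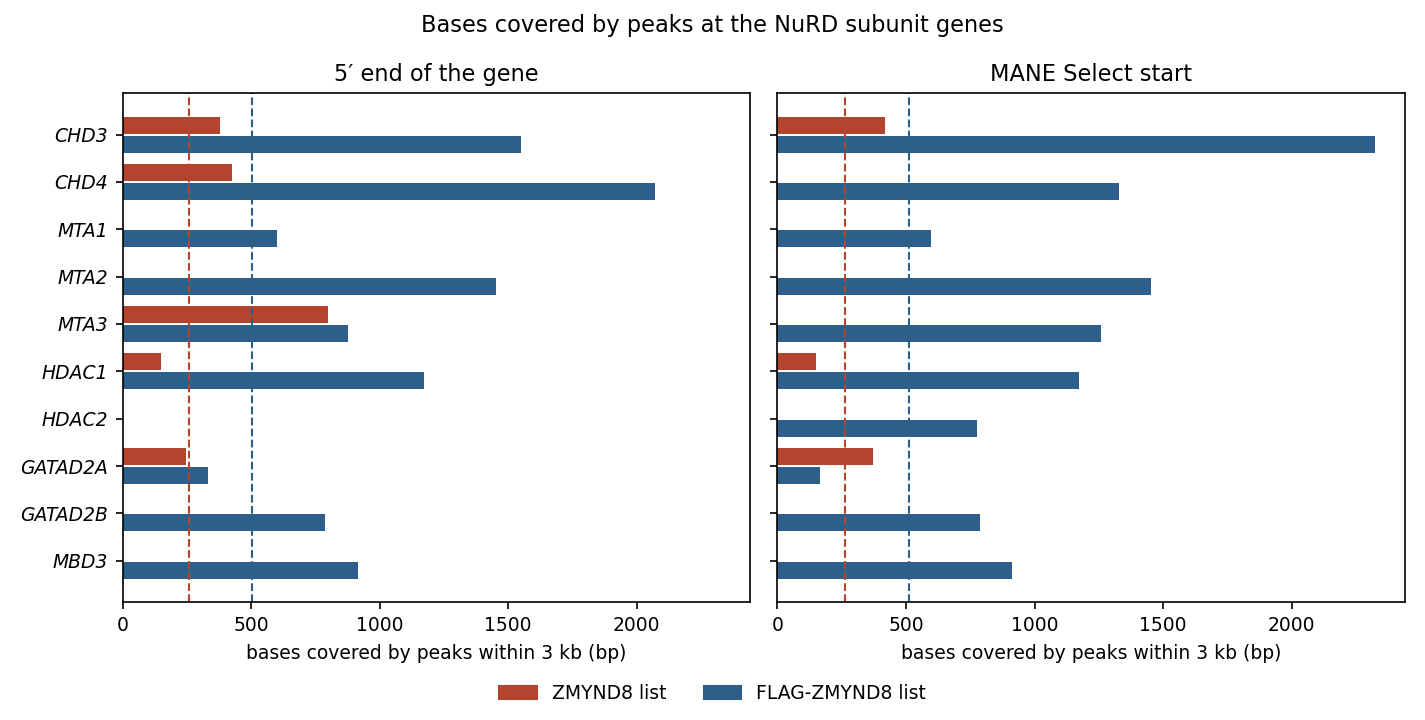
Bases covered by ZMYND8 and FLAG-ZMYND8 peaks within 3 kb of the 5′ end (left) and of the MANE Select start (right) of each NuRD subunit gene, in bp. Bars start at 0 and dashed lines give the median over protein-coding genes with a peak of that list there; at the MANE Select start the FLAG-ZMYND8 bars run from 167 bp at GATAD2A to 2324 bp at CHD3.

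The 5′ end of a gene is set by its longest-reaching annotated transcript, and in 5 of the 10 genes it lies over 3 kb from the MANE Select start: 3993 bp in CHD3, 7145 bp in CHD4, 19849 bp in GATAD2A, 40160 bp in HDAC2 and 74063 bp in MTA3. Over protein-coding genes this holds for 2514 genes, or 12.5%. Taken from the MANE Select start, FLAG-ZMYND8 peaks lay within 3 kb in all 10 genes, where 59.6% of protein-coding genes had one at their MANE Select or canonical start. ZMYND8 peaks lay there in 3 of 10, namely CHD3, HDAC1 and GATAD2A, against 35.2%. In the 5 genes with the distant start, the FLAG-ZMYND8 list had a peak at it in 5 of 5, against 57.3% of the 2514 genes, and the ZMYND8 list in 2 of 5, against 32.5%. With the MANE Select start the ZMYND8 share was therefore near its background and no longer above it. The same held for a window of 500 bp around the 5′ end, with ZMYND8 peaks at 2 of 10 genes (CHD3 and CHD4) against 21.5% of protein-coding genes. FLAG-ZMYND8 peaks lay within that window at 7 of 10 genes, against 37.6%.

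HDAC2 went from no peak to 1 with this choice. Its only peak in either list was a FLAG-ZMYND8 peak of 775 bp that covered the MANE Select start, with the midpoint 147 bp upstream of it and 40013 bp from the 5′ end of the gene. In width it was number 2172 of the 63690 peaks. The stretch before this start printed above lies within it.

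At MTA3, FLAG-ZMYND8 peaks of 810 and 448 bp flanked the MANE Select start, 452 bp upstream and 591 bp downstream, and no ZMYND8 peak lay within 3 kb. MTA3 thus had wide FLAG-ZMYND8 peaks at both starts and its ZMYND8 peak at the far one only. At CHD4, FLAG-ZMYND8 peaks of 458 and 728 bp lay 184 bp upstream and 1079 bp downstream, the latter on the coding part of exon 2, again with no ZMYND8 peak. At CHD3, a FLAG-ZMYND8 peak of 1073 bp covered the MANE Select start, and a ZMYND8 peak of 226 bp lay wholly inside it, 788 bp upstream. With 2324 bp covered by FLAG-ZMYND8 peaks within 3 kb of that start, CHD3 exceeded 99.1% of protein-coding genes.

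At GATAD2A the lists parted. A ZMYND8 peak of 372 bp, the widest of that list in the body of any of the 10 genes, lay 296 bp upstream of the MANE Select start and overlapped no FLAG-ZMYND8 peak. The nearest FLAG-ZMYND8 peak had the minimum width of 167 bp and lay 466 bp downstream. GATAD2A was the only one of the 10 genes where ZMYND8 peaks covered more of this window than FLAG-ZMYND8 peaks, 372 against 167 bp.

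In the rest of the gene body, more than 3 kb from the 5′ end, 9 of the 10 genes had a FLAG-ZMYND8 peak, all but the short MTA2, where 48.8% of the 18373 protein-coding genes with such a body had one. ZMYND8 peaks were found there in 5 of 10, namely CHD3, CHD4, MTA1, GATAD2A and MBD3, against 20.7%. The lists held 40 FLAG-ZMYND8 and 7 ZMYND8 peaks in these bodies, 5.71 times as many. Pooled over the 10 genes this was 0.526 FLAG-ZMYND8 and 0.0920 ZMYND8 peaks per 10 kb of body, where protein-coding genes had 0.249 and 0.0443. These counts take in 9 FLAG-ZMYND8 and 2 ZMYND8 peaks within 3 kb of a MANE Select start. The background was not computed without such peaks. Within the span of the MANE Select transcript, 8 genes had a FLAG-ZMYND8 and 4 a ZMYND8 body peak. The lists overlapped at 4 of the 40 FLAG-ZMYND8 and 4 of the 7 ZMYND8 peaks, in CHD3, MTA1, GATAD2A and MBD3. Over the body peaks of all protein-coding genes, 6.20% of the FLAG-ZMYND8 and 31.7% of the ZMYND8 peaks overlapped the other list.

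**Figure D4:**
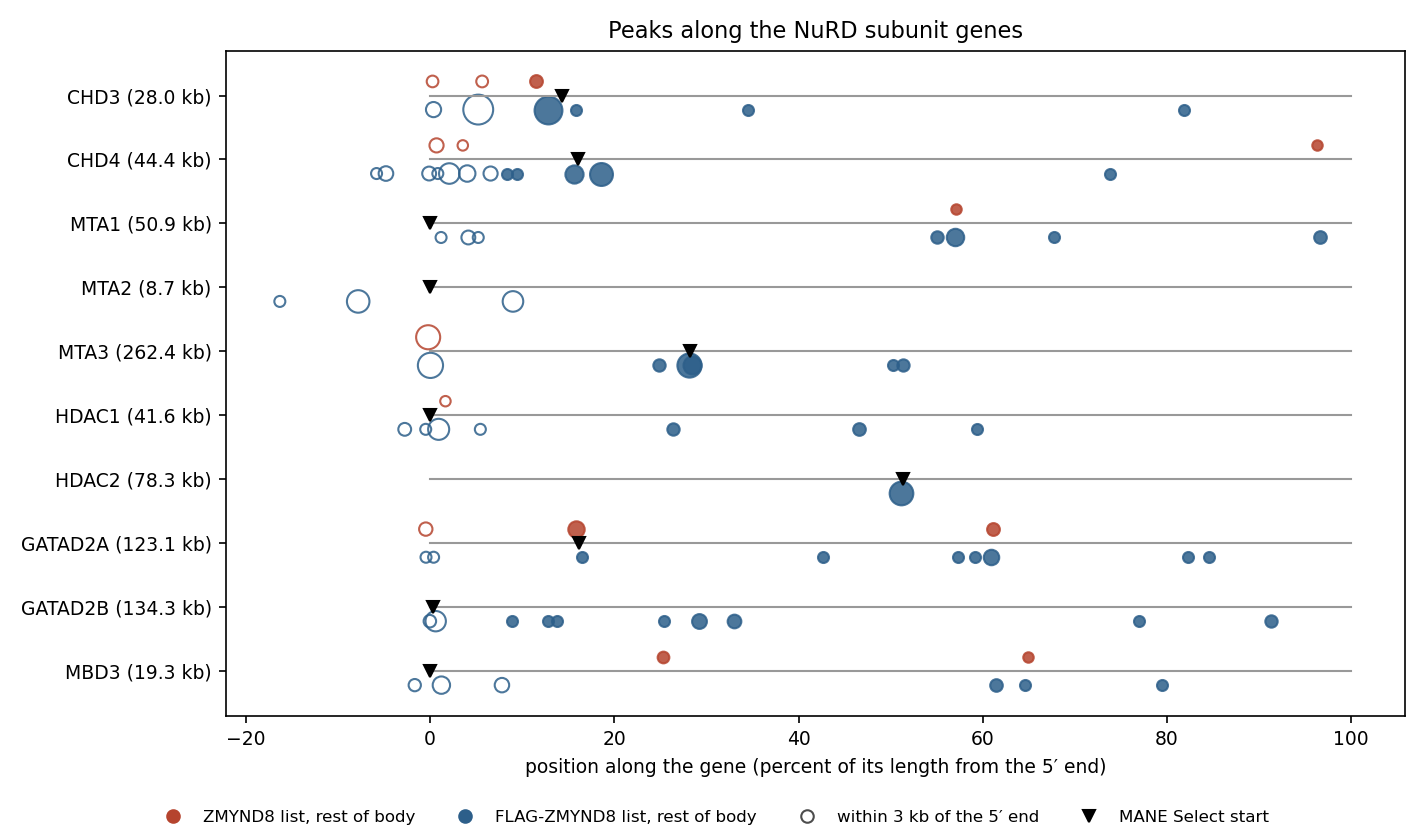
Peaks along each NuRD subunit gene, with position as a percentage of the gene length from its 5′ end and gene lengths in kb beside the names. Filled circles are peaks in the rest of the body and open circles peaks within 3 kb of the 5′ end, ZMYND8 above and FLAG-ZMYND8 below the line, with area proportional to width. Triangles mark the MANE Select starts, beside which lie the widest body peaks of HDAC2 (775 bp), MTA3 (810 bp) and CHD3 (1073 bp).

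The density of body peaks differed widely between the genes. In CHD3, CHD4, GATAD2A, HDAC2 and MTA3 it takes in FLAG-ZMYND8 peaks near the MANE Select start. For FLAG-ZMYND8 it was highest in MBD3 (1.84 per 10 kb), CHD3 (1.60) and CHD4 (1.21), and lowest, leaving aside MTA2 with none, in HDAC2 (0.133) and MTA3 (0.193). MTA1 and HDAC1 had 0.835 and 0.778, and GATAD2B and GATAD2A 0.609 and 0.583. By count GATAD2B (134.3 kb) and GATAD2A (123.1 kb) led with 8 and 7 peaks. MTA3, the longest gene with 262.4 kb, had 5, as many as CHD4 with 44.4 kb, and HDAC2 with 78.3 kb had 1, fewer than CHD3 with 4 and MBD3 with 3. Spearman's rho between gene length and the count of FLAG-ZMYND8 body peaks was 0.703 over the 10 genes, and that for ZMYND8 was -0.217. Both are descriptions over genes of the same 2 lists and have no p. MBD3 had 1.23 ZMYND8 body peaks per 10 kb, more than 98.3% of protein-coding genes with a body of 1 kb or more. This rank rests on 2 peaks in a short gene. The median and the upper quartile over those protein-coding genes were both 0, and CHD3 with 1 such peak already exceeded 94.0% of them.

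The peaks of the bodies were mostly narrow, and the widest of them lay near MANE Select starts. The 9 FLAG-ZMYND8 body peaks within 3 kb of a MANE Select start had a median width of 458 bp. Those at CHD3, CHD4 and GATAD2A included peaks of the minimum width. The other 31 had a median of 167 bp, the minimum of the list, and a widest peak of 420 bp. That widest one lay in intron 3 of MTA1 and held the ZMYND8 peak of 151 bp whose sequence is printed above. Of the 31, 19 had exactly the minimum width.

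Most body peaks lay in introns. In the MANE Select transcripts, 26 of the 40 FLAG-ZMYND8 midpoints and 5 of the 7 ZMYND8 midpoints lay in an intron. Of the FLAG-ZMYND8 peaks 15 touched an annotated exon and 8 a coding exon, such as the minimum-width peaks on exon 8 and exon 33 of CHD3 and exon 31 of CHD4. In GATAD2B, 6 of its 8 body peaks lay in intron 1. The share of body bases in introns, or in this intron, was not computed. These counts therefore have no background beside them and do not show a preference for introns or exons. In MBD3, the ZMYND8 peaks lay in intron 1 (189 bp) and intron 5 (151 bp), the latter overlapping a FLAG-ZMYND8 peak by 98 bp.

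Annotated alternative starts were frequent in these genes, from 7 in MTA2 to 53 in CHD4. Of the FLAG-ZMYND8 body peaks 16 of 40, and of the ZMYND8 body peaks 4 of 7, had their midpoint within 1 kb of a start of some transcript of the gene, and 16.0% of the body bases lie that near to one. Counted without them, 24 FLAG-ZMYND8 and 3 ZMYND8 peaks remained, and ZMYND8 body peaks were left in 2 genes, GATAD2A and MBD3. When every annotated start was allowed as a TSS, 7 genes had a ZMYND8 peak within 3 kb, with MTA1 and MBD3 added, and all 10 had a FLAG-ZMYND8 peak, against 40.2% and 65.0% of protein-coding genes.

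Several peaks lay close to the limits of the definition. Just inside 3 kb of the 5′ end were FLAG-ZMYND8 peaks of CHD4 (2916 bp) and MTA1 (2659 bp). Just outside were the ZMYND8 peak of CHD3 at 3205 bp and FLAG-ZMYND8 peaks of CHD3 at 3570 bp and CHD4 at 3719 bp. At the 3′ end of MTA1 a ZMYND8 peak of 151 bp lay wholly inside a FLAG-ZMYND8 peak of 261 bp. Both overlapped the end of the gene, but their midpoints, 50968 and 51017 bp from the TSS, lay just beyond it, so neither was counted. Counted by any base, MTA1 had 2 ZMYND8 and 5 FLAG-ZMYND8 body peaks.

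A further list of NuRD genes, which holds MBD2, RBBP4, RBBP7, CHD5, CDK2AP1, PWWP2A and PWWP2B, was set beside the 10. RBBP4 and RBBP7 are histone-binding subunits, MBD2 is the alternative to MBD3 that binds methylated CpG, and CHD5 is a remodeller known mainly from neurons. Of these 7 genes 5 had a ZMYND8 peak at the 5′ end (MBD2, RBBP4, RBBP7, CDK2AP1 and PWWP2B), against 34.1% of protein-coding genes. A FLAG-ZMYND8 peak lay there in 6 (all but PWWP2A), against 58.1%, and 4 had overlapping peaks, against 20.3%. In the rest of the body none of the 7 had a ZMYND8 peak, against 20.7% of protein-coding genes with such a body. A FLAG-ZMYND8 peak lay there in 6, against 48.8%. With only 7 genes, these shares are a description. At the MANE Select start, ZMYND8 peaks covered 1230 bp at RBBP4, 985 bp at CDK2AP1 and 826 bp at RBBP7, each more than the 418 bp of CHD3, which was the highest of the 10 genes there. The start of ZBTB8OS, another protein-coding gene, lay 377 bp from the midpoint of the RBBP4 peak and inside it, so that this peak lies at both genes.

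The promoters of the NuRD subunit genes, taken as 250 bases before to 50 after the start, were rich in G and C. Their median GC content was 66.2% at the 5′ ends and 72.3% at the MANE Select starts, where protein-coding genes had 60.3% and 63.7%. At the 5′ ends, those of CHD4 and HDAC2 were poorest in GC, with 50.7% and 46.0%, and at the MANE Select starts the same genes reached 71.0% and 64.0%. CHD3 moved the other way, from 69.7% to 56.0%. A GC box stood in 8 of the 10 promoters at either start, against 52.2% of protein-coding promoters at the 5′ end and 61.0% at the MANE Select or canonical start. A CCAAT box stood in 4 of 10, against 35.8% and 35.9%, and an ETS match in 2 of 10, against 11.8% at the 5′ end. The NRF1 core, the E-box, the CRE letters and TATAAA had no match in any of the 10 promoters, and 4.59%, 8.34%, 4.06% and 10.9% of protein-coding promoters at the 5′ end held them.

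The GC content of the peaks was close to that of their lists or a few percentage points above it. The ZMYND8 peaks at the TSSs of the 10 genes had a median GC content of 66.5% and those in the bodies 64.9%, and the whole list 60.9%. For FLAG-ZMYND8 the medians were 62.6% at the TSSs and 58.7% in the bodies, and 58.1% in the whole list. The whole lists mix peaks of all places. GC content was not computed for the peaks at all protein-coding TSSs, so a difference from the list is not shown to be particular to these genes. In width, the ZMYND8 peaks at the 10 TSSs had a median of 192 bp, below the 226 bp of the ZMYND8 peaks at protein-coding TSSs, and the FLAG-ZMYND8 peaks one of 266 bp, above 227 bp. Of the 27 FLAG-ZMYND8 peaks 9 had the minimum width, and of the 7 ZMYND8 peaks 2. Over the peaks at protein-coding TSSs the shares were 36.0% and 36.2%.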

How the data were processed

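The series measured ChIP-seq in 10 HEK293 samples, of which the ZMYND8 and FLAG-ZMYND8 peak lists were used. Reads had been mapped by the authors to hg19 with BWA-MEM, and profiles made with HOMER (the submitters' processing notes name BWA 0.7 and HOMER). The peak-calling settings and the way replicates were combined are not given in the sources used here. The lists that the authors deposited hold positions, converted here from 0-based starts, and a score that is 1 in every row and was not used. The columns were placed by target only, since they name no replicate.

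Genes came from GENCODE release 44 on GRCh37, and all 23 chromosomes used fit its lengths. A peak was placed by its midpoint: at the TSS within 3 kb of the 5′ end of the gene, otherwise in the body. Shared peaks overlapped by at least 1 bp. Bases were read from GRCh37. The depth is unknown and no test was made. The placing functions were tested on simulated lists. The subunit genes, the further NuRD list, the motifs and the rule for named genes (all of these, genes with a start nearer to a peak, and neighbours by width) were chosen with earlier results of these data known. Python 3.11.15, pandas 2.3.3, numpy 2.4.6, scipy 1.17.1 and matplotlib 3.10.9 were used. Other windows, starts, overlaps, widths and body definitions were tried as alternatives.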

Additional observations from a re-analysis of the deposited data

How the results depend on the processing

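Of 67 alternative values of the main counts, 45 stayed within 1.5 times. A window of 500 bp left 2 genes with a ZMYND8 peak, with both lists and with overlapping peaks, 2 ZMYND8 and 10 FLAG-ZMYND8 peaks in all. The ZMYND8 share of 2 of 10 then no longer exceeded that of protein-coding genes (21.5%). A window of 1 kb left 16 FLAG-ZMYND8 peaks. The MANE Select start gave 3 genes with a ZMYND8 peak (4 peaks), 3 with both lists and 2 with overlapping peaks. Starts of any transcript gave 15 ZMYND8 and 50 FLAG-ZMYND8 peaks. With peaks wider than the minimum only, 3 genes had both lists and 2 overlapping peaks at the TSS, while in the bodies 3 genes had a ZMYND8 peak, with 4 ZMYND8 and 18 FLAG-ZMYND8 peaks. A reciprocal overlap of 50% left 3 genes. Whole genes held 12 ZMYND8 peaks. Without body peaks within 1 kb of an annotated start, 2 genes kept a ZMYND8 peak, with 3 ZMYND8 and 24 FLAG-ZMYND8 peaks. Fewer peaks entered under narrower windows by construction; the cause of the change with the MANE Select start is that it lies elsewhere in 5 genes. An alternative chosen after seeing the data, leaving out peaks nearer to another protein-coding gene, left 4 genes with a ZMYND8 peak, without MTA3, and 9 with a FLAG-ZMYND8 peak. No paired analysis was possible because each target has a single list without replicate names, which also kept any replicate from being left out. Depth is unknown, so a gene without a peak may hold signal that was not called.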
